A study of Mus musculus with 6 samples.

Results

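Collagen chain genes were examined in primary mouse renal fibroblasts (genotype WT) cultured alone or cocultured with T helper 17 (Th17) cells. Members were the rows of the expression table named Col, a number, the letter a and a second number, which gave 44 genes of 34745. They were placed in 9 structural classes, namely 11 fibrillar, 9 fibril-associated, 6 basement membrane, 6 beaded filament, 4 transmembrane, 3 short-chain network, 2 multiplexin, 1 anchoring fibril and 2 other collagens. RNA was sequenced from 3 libraries of fibroblasts alone, labelled as untreated, and 3 libraries of fibroblasts with Th17. In the coculture the fibroblasts had adhered for 6 h before an insert with pores of 0.4 µm, holding induced Th17 cells, was set above them for 24 h, and only the lower chamber was collected. The fibroblasts had been released from kidney with trypsin and collagenase IV and grown in fibroblast medium, and the Th17 cells had been induced from CD4+ T cells with antibodies to CD3 and CD28, IL-1β, IL-6, IL-23 and an antibody to IFN-γ. The methods name Balb/c mice without tying them to these fibroblasts, and age and the hours of culture alone are not given in the sources used here. Nor is it stated whether the libraries came from separate cultures or animals, so p-values measure only the spread between these libraries, which may be technical. The study made the cocultures to examine whether Th17 cells act on fibroblasts in a profibrotic way. From RNA sequencing of fibroblasts alone and cocultured, it reported a marked rise of markers related to fibrosis, Bmp2 among them. It also blotted type I collagen, α-SMA, vimentin, Bmp2 and phosphorylated Smad proteins from such cocultures. The fibrotic phenotype it described was characterized by higher Bmp2 and Smad phosphorylation. The values here are of RNA only.

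Collagens are trimers of chains wound into a triple helix. Fibrillar collagens assemble into the tensile fibrils of the interstitium, fibril-associated and beaded collagens decorate and connect these fibrils, and basement membrane collagen forms sheets beneath epithelium and endothelium. In the kidney, interstitial fibroblasts are a main source of types I, III, V and VI, and their deposition is the hallmark of renal fibrosis.

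Total counts lay between 12050529 and 13209581 per library, and 3 counts, the limit taken for detection, corresponded to 0.223 to 0.2536 CPM (counts per 1e+06 counts). CPM here means counts scaled to the library total times a factor from the trimmed mean of M values (TMM). Intervals and this limit cover counting error only, because PCR copies were not marked with molecular identifiers. Fibroblast markers were present in both groups, at a summed 3274 to 3436 CPM alone and 3346 to 3517 CPM with Th17 over 8 markers. Of these, 6 were lower, 1 (Dcn, decorin) was higher and 1 passed no test. The near-equal sums hide opposite moves. Dcn rose from a mean of 504 to 1427 CPM, while Vim, among the 6 lower, fell from 2048 to 1425 CPM. Among all genes tested, 20.0% were lower and 17.1% higher. The lower marker Tcf21 had enough counts for testing only in the fibroblasts alone. The T cell markers summed to 3.18 to 3.97 CPM alone and 2.36 to 3.73 CPM with Th17 over 9 markers, with Cd3d, Il17a and Il17f at 0 in all 6 libraries. Only 1 of the 9, Trac, had enough counts to be tested, and it did not pass (log2 fold change 0.03, edgeR adjusted p = 0.948).

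Most of the collagen message fell in coculture. Collagen genes took 4.82%, 4.8% and 4.67% of all counts in the libraries of fibroblasts alone and 2.21%, 2.26% and 2.0% in those with Th17. The groups did not overlap, and the mean share dropped from 4.76% ± 0.0823 to 2.16% ± 0.136 (SD, n = 3 each), a ratio of 2.21. The exact two-sided permutation test gave p = 0.1, the smallest value that 3 libraries against 3 allow. In bulk RNA, fewer cells of a type and less RNA per cell cannot be told apart.

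**Figure D1:**
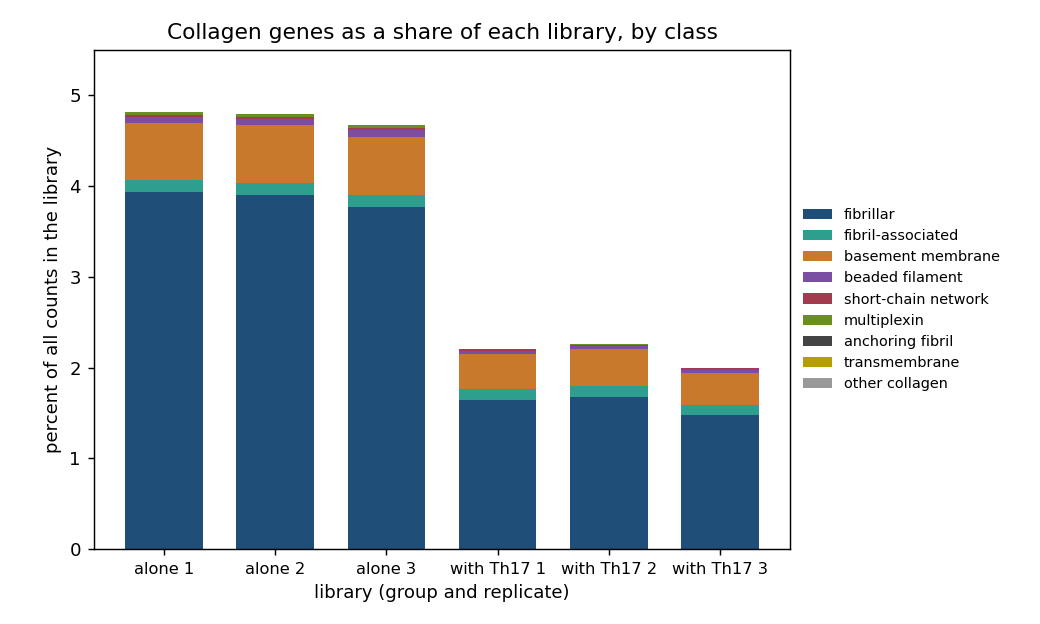
Collagen counts as a percent of all counts in each of the 6 libraries (y axis, from 0), stacked by collagen class; each bar is 1 library. The 3 bars of fibroblasts alone reach 4.67% to 4.82% and the 3 bars with Th17 reach 2.0% to 2.26%, and fibrillar genes fill most of every bar.

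Of the 44 genes, 28 had enough counts to be tested with edgeR across all 13088 genes that passed the filter on low counts. Adjusted p (Benjamini-Hochberg) was below 0.05 for 20 lower and 3 higher collagen genes, and 5 passed no test. Over all genes tested, 20.0% were lower and 17.1% higher by the same rule. More than 2-fold, 13 collagen genes were lower and 3 higher, against 7.78% and 3.87% of all genes. The groups did not overlap for 20 genes that were lower and 4 that were higher, against 26.1% and 24.3% of all genes. The median log2 fold change of the 28 genes was −0.86, beside 0.00382 over all genes tested. Of these genes, 25 passed the filter in both groups, and among them 19 were lower, 2 higher and 4 neither, with a median of −0.88. More than 2-fold, 12 of these 25 were lower and 2 higher. The other 3 passed through the group in which they were high (Col8a2 and Col23a1 alone, Col6a6 with Th17), so their entry into the test already favoured a difference. Leaving out the 8 genes of the 44 that overlap a gene outside the collagen family with counts, 14 of 22 were lower and 3 higher, with a median of −0.82. Col4a1, which overlaps Col4a2 by 22 nt, was kept in that count.

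**Figure D2:**
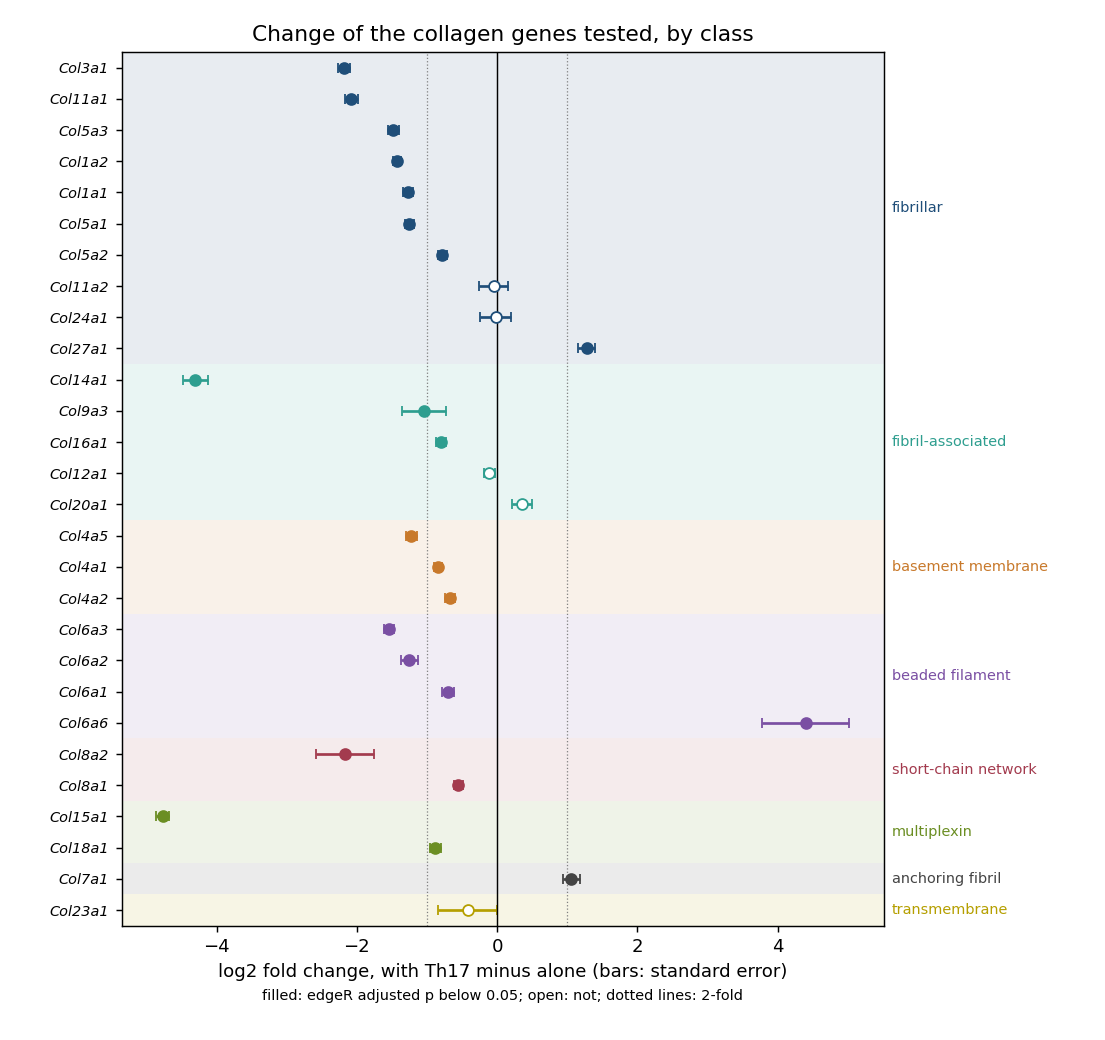
Log2 fold change (x axis, with Th17 minus alone) of the 28 collagen genes tested, grouped and coloured by class, with bars of 1 standard error; filled points had an edgeR adjusted p below 0.05 and dotted lines mark 2-fold. Most points lie left of 0, from −4.77 (Col15a1), and Col27a1, Col7a1 and Col6a6 lie to the right at 1.28, 1.06 and 4.40.

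The 250 bases before the RefSeq start are shown for genes of the fibrillar, multiplexin and anchoring fibril classes that moved more than 2-fold, 5 of them lower (Col3a1, Col5a1, Col5a3, Col11a1, Col15a1) and 2 higher (Col7a1, Col27a1), where the window was matched and holds no annotated exon. They read 5′ to 3′ on the strand of the gene, on GRCm38.p6, at chr1:45311288-45311537, chr2:27886175-27886424, chr9:20815068-20815317 (minus strand, the others plus), chr3:114030290-114030539, chr4:47207762-47208011, chr9:108953336-108953585 and chr4:63215162-63215411 in the order printed. Capitals mark each match, on either strand, to 4 motifs. The TATA box was searched as TATAAA. The letters of the CCAAT box are its name, and those of the GC box were GGGCGG. The AP-1 site was searched as TGAGTCA and its complement, and a motif was counted also where it overlapped another. The Col27a1 window lies inside the longer gene model of the deposited table, in an intron.
Col3a1: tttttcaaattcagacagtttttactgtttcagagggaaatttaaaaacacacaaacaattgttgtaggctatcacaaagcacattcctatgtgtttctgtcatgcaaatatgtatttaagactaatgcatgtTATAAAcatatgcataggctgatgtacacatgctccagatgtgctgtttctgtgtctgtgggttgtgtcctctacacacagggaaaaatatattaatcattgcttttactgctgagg
Col5a1: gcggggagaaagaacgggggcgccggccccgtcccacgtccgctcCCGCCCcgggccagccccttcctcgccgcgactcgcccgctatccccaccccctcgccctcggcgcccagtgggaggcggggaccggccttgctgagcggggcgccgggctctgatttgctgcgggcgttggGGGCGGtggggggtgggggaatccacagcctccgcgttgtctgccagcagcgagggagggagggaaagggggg
Col5a3: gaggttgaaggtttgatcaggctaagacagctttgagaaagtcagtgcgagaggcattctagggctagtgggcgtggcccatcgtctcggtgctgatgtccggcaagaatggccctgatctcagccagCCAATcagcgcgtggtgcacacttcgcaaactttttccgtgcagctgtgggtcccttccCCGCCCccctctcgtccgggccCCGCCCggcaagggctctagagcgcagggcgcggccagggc
Col11a1: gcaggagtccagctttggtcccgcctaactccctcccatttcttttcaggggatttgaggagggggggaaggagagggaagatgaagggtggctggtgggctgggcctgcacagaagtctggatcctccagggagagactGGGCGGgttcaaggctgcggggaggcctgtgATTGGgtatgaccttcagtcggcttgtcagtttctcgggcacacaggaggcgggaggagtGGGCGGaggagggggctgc
Col15a1: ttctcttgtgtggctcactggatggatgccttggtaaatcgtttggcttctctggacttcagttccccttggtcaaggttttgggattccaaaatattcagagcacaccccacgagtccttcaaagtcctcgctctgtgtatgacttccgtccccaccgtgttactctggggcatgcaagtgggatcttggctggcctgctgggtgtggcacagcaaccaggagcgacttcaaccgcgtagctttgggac
Col7a1: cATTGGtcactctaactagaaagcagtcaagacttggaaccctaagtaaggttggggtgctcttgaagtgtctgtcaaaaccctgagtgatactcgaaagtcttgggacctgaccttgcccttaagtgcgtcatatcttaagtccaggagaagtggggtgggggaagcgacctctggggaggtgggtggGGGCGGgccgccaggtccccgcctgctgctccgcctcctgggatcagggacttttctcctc
Col27a1: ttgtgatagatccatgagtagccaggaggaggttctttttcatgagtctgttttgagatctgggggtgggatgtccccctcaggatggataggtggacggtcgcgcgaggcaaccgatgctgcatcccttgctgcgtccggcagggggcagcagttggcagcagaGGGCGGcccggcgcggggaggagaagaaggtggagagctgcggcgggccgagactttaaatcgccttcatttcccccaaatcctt
Col3a1 carried a TATA box match, Col5a1, Col5a3 and Col11a1 held 2 GC box matches each, and Col15a1 held no match to any of the 4 motifs. Both genes that were higher had a GC box match, as did lower genes. RefSeq windows matched 35 of the 44 collagen genes by symbol, with 38 windows. The GC box letters occurred in 57.9% of these 38 windows and in 32.7% of all 32851 windows, those of the CCAAT box in 34.2% and 33.8%, those of the TATA box in 13.2% and 12.4%, and those of the AP-1 site in 2.6% and 4.5%. These are matches of letters in a window, and no test was made of them.

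Fibrillar collagens were the bulk of the change. Of 11 genes, 10 were tested, 7 were lower, 1 (Col27a1) was higher, and the median log2 fold change was −1.26. Together they went from 39546 ± 1042 to 15661 ± 1095 CPM. The net fall of all collagen genes was 27581 CPM, of which Col1a1 made up 32.1%, Col1a2 28.4%, Col3a1 12.3%, Col5a2 6.32% and Col5a1 5.73%. These shares are of counts, which grow with the length of a message.

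Type I collagen, the main tensile collagen, is built from the products of Col1a1 and Col1a2. Col1a1 (ENSMUSG00000001506, GRCm38 chromosome 11, 94936224 to 94953042) stood at 15730, 15202 and 14284 CPM alone and at 6500, 6522 and 5663 CPM with Th17. Its level was 2.42-fold lower (log2 fold change −1.27, SE 0.069, adjusted p = 1.07e-06). Col1a2 (ENSMUSG00000029661, chromosome 6, 4504814 to 4541544) read 12582, 12713 and 12090 CPM alone against 4619, 4850 and 4394 CPM with Th17, 2.70-fold lower (log2 fold change −1.43, SE 0.055, adjusted p = 1.37e-07). Every library with Th17 lay below every library alone for both chains. Type III collagen, a homotrimer of the Col3a1 product that mixes into type I fibrils of pliable tissue, fell further. Col3a1 (ENSMUSG00000026043, chromosome 1, 45311538 to 45349706) had 4385, 4349 and 4358 CPM alone and 998, 1050 and 835 CPM with Th17. The fold was 4.54 (log2 fold change −2.18, SE 0.084, adjusted p = 1.37e-07), and the spread among the libraries alone (SD 18.6 CPM) was small beside it.

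Type V collagen nucleates fibrils and limits their diameter. Its chain genes moved by unequal amounts. Col5a1 (ENSMUSG00000026837, chromosome 2, 27886425 to 28039514) was at 2683, 2742 and 2745 CPM alone and 1138, 1231 and 1060 CPM with Th17 (log2 fold change −1.25, SE 0.064, adjusted p = 6.95e-07). For Col5a2 (ENSMUSG00000026042, chromosome 1, 45374321 to 45503282) the values were 4221, 4202 and 4156 CPM alone and 2536, 2573 and 2240 CPM with Th17. This was a change of 1.71-fold (log2 fold change −0.78, SE 0.062, adjusted p = 1.45e-05). Col5a3, a chain of restricted distribution, gave 498, 485 and 512 CPM alone and 181, 196 and 158 CPM with Th17 (log2 fold change −1.48, SE 0.081, adjusted p = 1.11e-06). In none of the 3 genes did the groups overlap.

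Type XI collagen is closely related to type V and is best known from cartilage. Col11a1 went from 230, 210 and 202 CPM alone to 54.2, 52.6 and 44.5 CPM with Th17, 4.24-fold lower (log2 fold change −2.08, SE 0.091, adjusted p = 2.8e-07). Its partner Col11a2, at 7.72 ± 0.735 CPM alone and 7.46 ± 1.99 CPM with Th17, had a log2 fold change of −0.05 (adjusted p = 0.875). The groups overlapped there. Col24a1, a minor fibrillar gene known from bone, likewise had overlapping groups and a log2 fold change of −0.02 (adjusted p = 0.965). Col27a1 (ENSMUSG00000045672, chromosome 4, 63214004 to 63334991), a minor fibrillar gene known from cartilage, was the fibrillar gene that rose. It had 7.84, 7.03 and 6.85 CPM alone and 16.5, 17.8 and 18.5 CPM with Th17, 2.43-fold higher (log2 fold change 1.28, SE 0.119, adjusted p = 3.87e-05). Col2a1, the chain of cartilage type II collagen, had 1 count in a single library alone and none elsewhere, and was not tested.

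**Figure D3:**
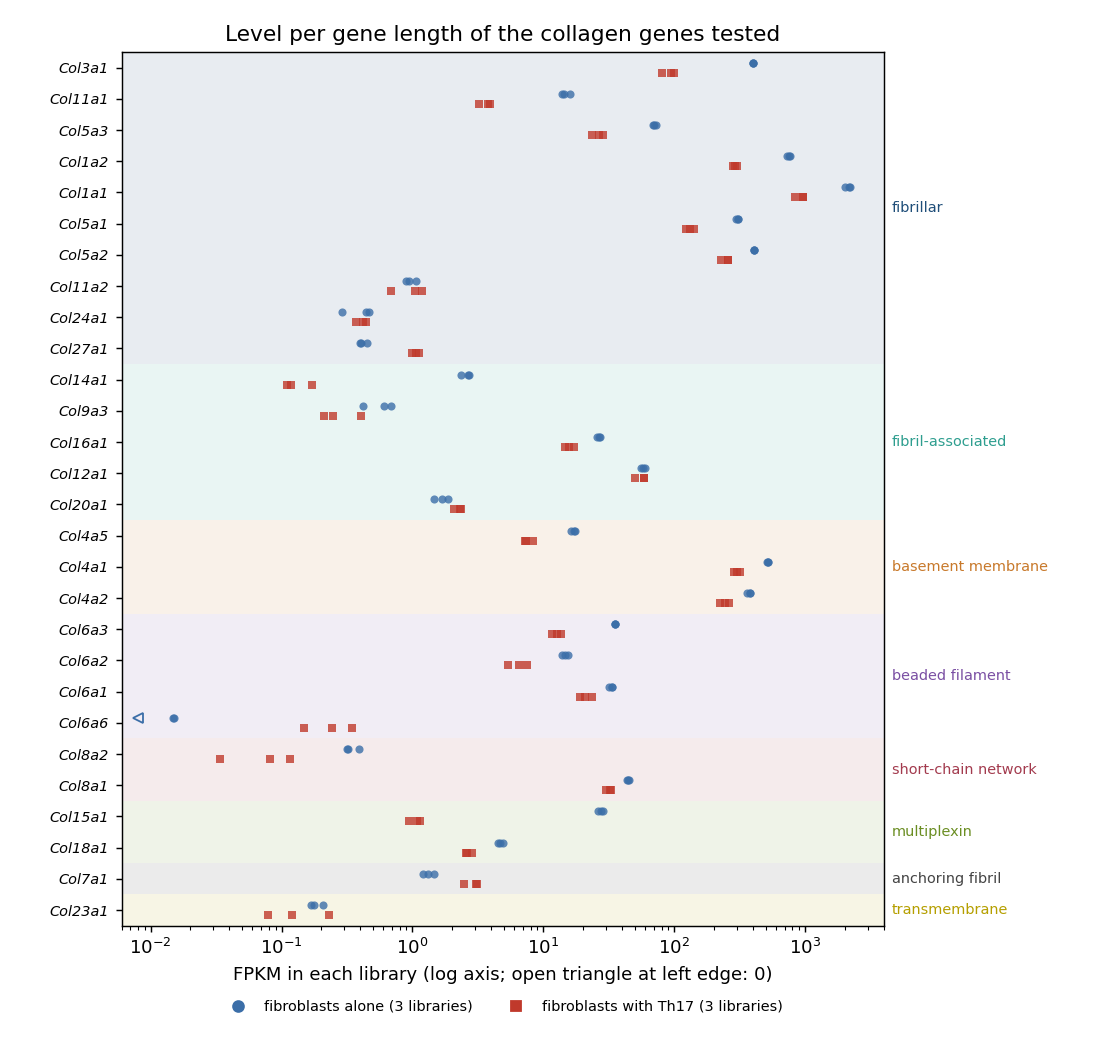
Level per gene length of the 28 collagen genes tested, as FPKM in each library on a log axis, by class; circles are the 3 libraries alone, squares the 3 libraries with Th17, and the open triangle at the edge a value of 0. Col1a1 lies furthest right in both groups (mean 2126 FPKM alone, 918 with Th17), Col15a1 and Col14a1 show the widest gaps to lower values, and the points of Col12a1, Col11a2 and Col24a1 overlap.

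Per gene length, as FPKM (fragments scaled to gene length in kilobases and to the library total), Col1a1 was the highest collagen gene in both groups, at 2126 ± 96.5 alone and 918 ± 67.5 with Th17. Col1a2 followed alone at 752 ± 17.9 FPKM, then Col4a1 at 518 ± 6.43, Col5a2 at 406 ± 1.94, Col3a1 at 398 ± 1.40, Col4a2 at 371 ± 8.48 and Col5a1 at 303 ± 4.69. With Th17 the order below Col1a1 was Col4a1 at 301 ± 15.1, Col1a2 at 291 ± 12.5, Col5a2 at 248 ± 17.2, Col4a2 at 243 ± 18.3, Col5a1 at 133 ± 9.14 and Col3a1 at 91.5 ± 10.2 FPKM. Alone, each of these neighbours differed by more than the SDs. Col4a1 and Col1a2 with Th17 lay within a standard deviation of each other, as did Col5a2 and Col4a2. The FPKM values imply a length of 16209 nt for Col1a2, where the longest GENCODE transcript has 5348 nt, and of 6934 nt for Col1a1, where it has 5930 nt. The same lengths were 10734 and 5564 nt for Col3a1, 10103 and 6625 nt for Col5a2, and 7051 and 6615 nt for Col4a1. The level of Col1a2 relative to Col1a1 therefore depends on the length used. So does the order given here below Col1a1, in both groups.

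Fibril-associated collagens sit on the surface of fibrils. Of 9 genes, 5 were tested, and 3 were lower, none higher and 2 neither, with a median log2 fold change of −0.80. Col14a1 (ENSMUSG00000022371, chromosome 15, 55307750 to 55520803), which binds type I fibrils, fell to a low level. It had 25.1, 22.2 and 25.5 CPM alone (281 to 324 counts) and 1.56, 1.02 and 1.06 CPM with Th17 (13 to 21 counts). The fold was 19.8 (log2 fold change −4.30, SE 0.175, adjusted p = 1.82e-07), rank 71 from the lowest of 13088 genes. Col12a1 (ENSMUSG00000032332, chromosome 9, 79598991 to 79718831), its close relative, behaved otherwise. Its values were 1082, 1014 and 1034 CPM alone and 1022, 1023 and 865 CPM with Th17, with a log2 fold change of −0.11 (SE 0.074, adjusted p = 0.298). The groups overlapped, and its share of collagen counts went from 2.14% ± 0.0684 to 4.59% ± 0.149.

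Col16a1, a further fibril-associated gene, was 1.75-fold lower (log2 fold change −0.80, adjusted p = 2.3e-05). Col9a3, a chain of cartilage type IX collagen, had 2.48, 4.03 and 3.55 CPM alone and 1.19, 1.41 and 2.28 CPM with Th17 (log2 fold change −1.04, SE 0.309, adjusted p = 0.027). It rests on 16 to 51 counts, lost its call when any of 4 of the 6 libraries was left out (−0.85 to −1.0), and overlaps Tcfl5 on the opposite strand, which had up to 309 counts. Col20a1, at 8.54, 6.71 and 7.69 CPM alone and 9.0, 10.3 and 9.96 CPM with Th17, did not overlap between the groups, yet its log2 fold change of 0.35 did not pass (adjusted p = 0.086). Col9a1 had no count in any library. Col9a2 had 2 counts in 1 library alone, Col19a1 0 to 5 counts per library, and Col22a1 10 counts in all alone against 1 with Th17, a ratio of 10.5 (95% exact interval 1.5 to 457).

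Basement membrane collagen, type IV, forms networks of mixed chains. Enough counts were present for 3 of 6 genes, each of which was lower, with a median log2 fold change of −0.84. Col4a1 (ENSMUSG00000031502, chromosome 8, 11198423 to 11312826) gave 3689, 3765 and 3741 CPM alone and 2092, 2189 and 1955 CPM with Th17, 1.80-fold lower (log2 fold change −0.84, SE 0.056, adjusted p = 4e-06). Col4a2 (ENSMUSG00000031503, chromosome 8, 11312805 to 11449287), its partner in the ubiquitous type IV molecule, gave 2542, 2639 and 2629 CPM alone and 1638, 1766 and 1499 CPM with Th17 (log2 fold change −0.67, SE 0.066, adjusted p = 5.43e-05). Groups were separate for both genes.

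The type IV chains of the mature glomerular basement membrane are encoded by Col4a3, Col4a4 and Col4a5. Col4a5 stood at 147, 135 and 141 CPM alone and at 66.5, 57.7 and 57.9 CPM with Th17, 2.32-fold lower (log2 fold change −1.22, SE 0.078, adjusted p = 3.1e-06). Col4a6, which lies head to head with it on the X chromosome, had 7 counts in each library alone and 0 in each with Th17. Against the limit of 3 counts per library this was at least 2.39-fold lower, and the gene was too low to be tested. Col4a3 had 20 counts in all alone and 7 with Th17, a ratio of 3.01 (95% exact interval 1.22 to 8.42), and Col4a4 had 0 to 5 counts per library. The Col4a3 groups overlapped, at 4 to 10 counts per library alone and 0 to 6 with Th17.

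Type VI collagen forms beaded filaments around cells. Of 6 genes, 4 were tested, 3 were lower and 1 was higher, with a median log2 fold change of −0.97. Col6a3 fell most among the 3 classical chains, from 492, 491 and 490 CPM alone to 169, 183 and 155 CPM with Th17 (log2 fold change −1.54, SE 0.069, adjusted p = 3.18e-07). Col6a2 went from 120, 126 and 133 CPM to 53.6, 62.4 and 44.1 CPM (log2 fold change −1.25, SE 0.116, adjusted p = 3.79e-05). Col6a1 had a log2 fold change of −0.70 (153 ± 3.82 to 94.0 ± 10.8 CPM; adjusted p = 0.000223).

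Col6a4, Col6a5 and Col6a6 encode chains that can take the place of the Col6a3 product. Col6a6 (ENSMUSG00000043719, chromosome 9, 105687809 to 105828160) had 2, 2 and 0 counts alone and 20, 44 and 32 counts with Th17. The summed counts of 4 and 96 gave a ratio of 22.8 at equal depth (95% exact interval 8.62 to 85.4). The fitted log2 fold change was 4.40 (SE 0.623, adjusted p = 0.000543), rank 27 from the highest of 13088 genes, and depends on the prior count. With a mean of 0.104 CPM alone, the gene was below the detection limit there. Col6a5 had 6, 4 and 0 counts with Th17 and none alone, Col6a4 had 0 to 4 counts per library, and neither was tested.

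Multiplexins lie at the border of basement membranes and release endostatin-like fragments. Both were lower. Col15a1 (ENSMUSG00000028339, chromosome 4, 47208161 to 47313167) had the largest fall of the collagen genes tested, from 252, 264 and 273 CPM alone to 8.55, 10.1 and 10.3 CPM with Th17. These were 3226 to 3345 counts per library against 115 to 136. The fold was 27.2 (log2 fold change −4.77, SE 0.090, adjusted p = 8.56e-09), rank 51 from the lowest of all genes tested. Col18a1, the endostatin gene, was 1.84-fold lower (log2 fold change −0.88, adjusted p = 3.35e-05), with Slc19a1 overlapping on the opposite strand at up to 222 counts against up to 678.

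Short-chain collagens build hexagonal networks, in vessels and cornea for type VIII. Col8a1 was 1.46-fold lower (232 ± 1.85 to 159 ± 6.43 CPM, log2 fold change −0.55, adjusted p = 8.71e-05). Col8a2 had 1.55, 1.5 and 1.86 CPM alone and 0.372, 0.157 and 0.532 CPM with Th17 (log2 fold change −2.17, SE 0.411, adjusted p = 0.0029). That is 61 counts in all against 14, a ratio of 4.58 (95% exact interval 2.54 to 8.88). Col10a1, the chain of hypertrophic cartilage, had 0 to 6 counts per library, beside up to 150 in the overlapping gene Nt5dc1.

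Col7a1 (ENSMUSG00000025650, chromosome 9, 108953586 to 108984875), the anchoring fibril gene of skin, was higher. It had 13.7, 15.1 and 16.6 CPM alone and 27.1, 34.2 and 33.5 CPM with Th17, 2.09-fold higher (log2 fold change 1.06, SE 0.124, adjusted p = 0.000166). Tested against a change of 2-fold rather than 0, neither Col7a1 nor Col27a1 passed. Among the transmembrane collagens, Col23a1 had 6 to 18 counts per library and a log2 fold change of −0.42 (adjusted p = 0.47). Col17a1, of the hemidesmosome, had 14 counts in all alone and 31 with Th17, a ratio of 2.10 (95% exact interval 1.09 to 4.28). Its groups overlapped, at 4 to 6 counts per library alone and 5 to 15 with Th17. Col25a1 had 0 to 3 counts per library and Col13a1 none. Of the remaining collagens, Col28a1 had 34 counts alone and 13 with Th17, a ratio of 2.75 (95% exact interval 1.42 to 5.68), and Col26a1 had 2 counts in 1 library alone.

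The makeup of the collagen message shifted with the unequal falls. Fibrillar genes made up 81.6%, 81.3% and 80.7% of collagen counts alone and 74.4%, 74.0% and 74.0% with Th17. Basement membrane genes went the other way, from 13.3% ± 0.392 to 17.9% ± 0.237, as did fibril-associated genes, from 2.74% ± 0.085 to 5.35% ± 0.0845, mostly Col12a1. The fibril-associated difference was 2.6 percentage points of counts and 1.38 of summed FPKM. Multiplexins dropped from 0.651% ± 0.0379 to 0.185% ± 0.0144. Type I chains together went from 56.5% ± 0.962 to 51.4% ± 0.342 and Col3a1 from 8.96% ± 0.172 to 4.54% ± 0.226. Beaded filament genes, at 1.58% ± 0.0484 and 1.51% ± 0.069, overlapped (exact permutation p = 0.3). For each of the other named classes the groups were separate, with exact permutation p = 0.1 and 0.129 after adjustment over 9 classes.

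Genes whose chains join in a molecule or fibril did not all fall in step. Ratios of FPKM were compared for 8 pairs, and 7 of them separated the groups (exact two-sided permutation p = 0.1 each, 0.114 after adjustment over the 8 pairs). Among single genes tested, 26.1% were separate and lower and 24.3% separate and higher, and no share was computed for other gene pairs. Col1a1 to Col3a1 was 5.55, 5.41 and 5.07 alone and 10.1, 9.62 and 10.5 with Th17. Col1a1 to Col1a2 went from 2.83 ± 0.0847 to 3.15 ± 0.139, or from 1.09 to 1.21 when counts were divided by the longest GENCODE transcript, a calculation added after the data were seen. Col1a1 to Col5a1 was 7.01 ± 0.418 and 6.91 ± 0.289 with overlapping groups (exact permutation p = 0.8). The level of the other ratios also rests on the length used. With counts divided by the longest GENCODE transcript, Col1a1 to Col3a1 went from a mean of 3.24 to 6.1. By that calculation Col5a1 to Col5a2 went from 0.512 to 0.368 and Col6a1 to Col6a2 from 1.45 to 2.13.

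Within type V, Col5a1 to Col5a2 went from 0.747 ± 0.0146 to 0.537 ± 0.0184. Within type VI, Col6a3 to Col6a1 was 1.10, 1.05 and 1.05 alone and 0.609, 0.572 and 0.611 with Th17, and Col6a1 to Col6a2 went from 2.25 ± 0.0694 to 3.31 ± 0.220. Col4a1 to Col4a2 went from 1.40 ± 0.015 to 1.24 ± 0.0317. Col8a1 to Col8a2 went from 131 ± 14.4 to 520 ± 319, resting on 2 to 7 Col8a2 counts per library with Th17.

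**Figure D4:**
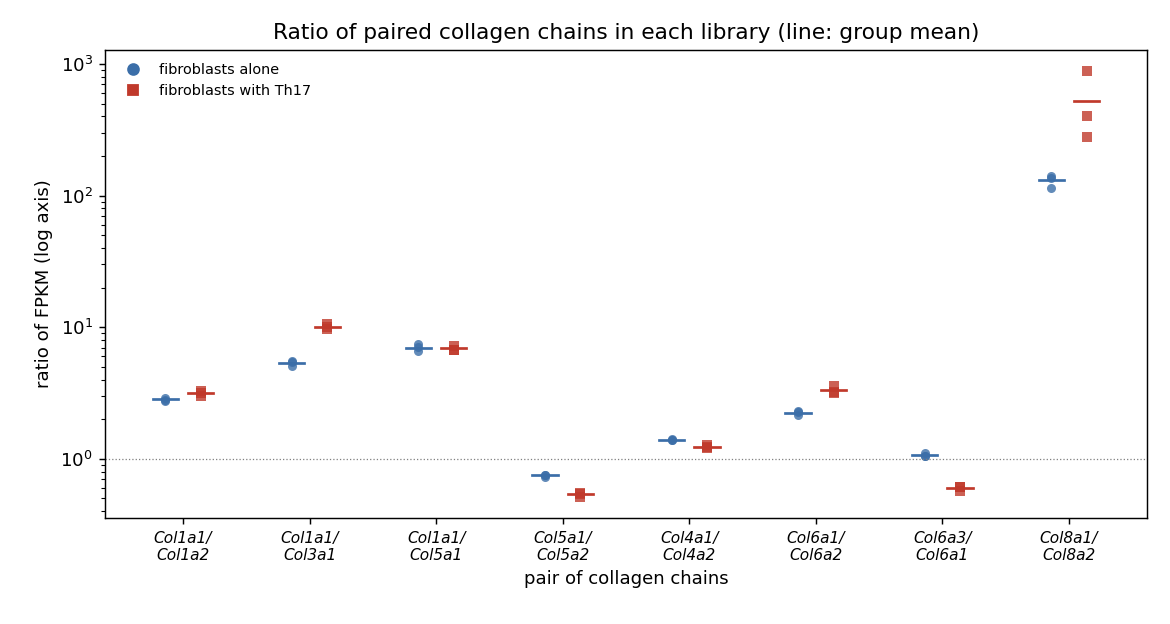
Ratio of the FPKM of 2 collagen chains in each library (log axis), for 8 pairs; circles are libraries alone, squares libraries with Th17, short lines the group means, and the dotted line a ratio of 1. Col1a1 to Col3a1 moves from a mean of 5.35 to 10.1 and Col6a3 to Col6a1 from 1.07 to 0.598, while the points of Col1a1 to Col5a1 overlap.

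Several of these genes are neighbours on GRCm38. Col4a1 and Col4a2 start 21 bases apart, head to head, and overlap by 22 nt; their log2 fold changes were −0.84 and −0.67. Col3a1 and Col5a2 lie tail to tail on chromosome 1 with 24614 bases between them and had log2 fold changes of −2.18 and −0.78. Col6a1 and Col6a2 lie on the same strand of chromosome 10, 85161 bases apart, at −0.70 and −1.25.

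Genes that make collagen chains into secreted protein were read from fixed lists. Beside the counts below, 20.0% of all genes tested were lower and 17.1% higher at adjusted p below 0.05. Of the hydroxylation and glycosylation list, 14 of 15 genes were tested, and 10 were lower, none higher and 4 neither, with a median log2 fold change of −0.45. P4ha3, a prolyl 4-hydroxylase subunit, was lowest at −0.99 (adjusted p = 0.000209), and the lysyl hydroxylase Plod2 went from 1007 ± 7.44 to 567 ± 31.4 CPM (−0.83, adjusted p = 5.42e-06). P4ha2 had a log2 fold change of −0.45, and P4hb and Crtap the smallest falls that passed, both at −0.34. None of the 14 changed more than 2-fold, where 6 of the 10 fibrillar genes tested fell by more than that. In the folding and secretion list, 4 of 10 tested were lower and none higher (median −0.34). Sparc, a secreted collagen-binding protein, went from 7741, 8199 and 8195 CPM to 3878, 4263 and 3900 CPM (log2 fold change −1.0, adjusted p = 1.46e-06). Fkbp10, a foldase of the endoplasmic reticulum, was at −0.69 and the coat protein gene Sec24d at −0.43. Serpinh1, the collagen chaperone HSP47, had 1662, 1465 and 1578 CPM alone and 764, 1395 and 1393 CPM with Th17, and its log2 fold change of −0.41 did not pass (adjusted p = 0.136).

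Propeptide removal and cross-linking genes moved both ways. Of 7 propeptide genes tested, 3 were lower and 2 higher (median −0.12), against 20.0% and 17.1% of all genes tested. The procollagen N-proteinases Adamts3 and Adamts2 were at −2.13 and −1.40, the C-proteinase Bmp1 at −0.37 and the enhancer Pcolce at −0.12 (adjusted p = 0.205). Not all proteinase genes of the list fell. Adamts14 was at −0.00 (edgeR adjusted p = 0.998) and Tll1 was higher at 0.77 (edgeR adjusted p = 0.00118), both picked here after their values were seen. Adamts3 rested on 24 to 36 counts per library alone and 4 to 14 with Th17. It entered the test through the group alone, in which it was high. Pcolce2, a second enhancer, rose from 9.61 ± 1.18 to 59.9 ± 3.83 CPM (log2 fold change 2.64, adjusted p = 2.14e-07). Of the 5 lysyl oxidase genes, which cross-link collagen and elastin, Loxl1 and Loxl2 were lower (−1.01 and −0.85) and Lox, Loxl3 and Loxl4 higher (0.85, 1.14 and 0.82).

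**Figure D5:**
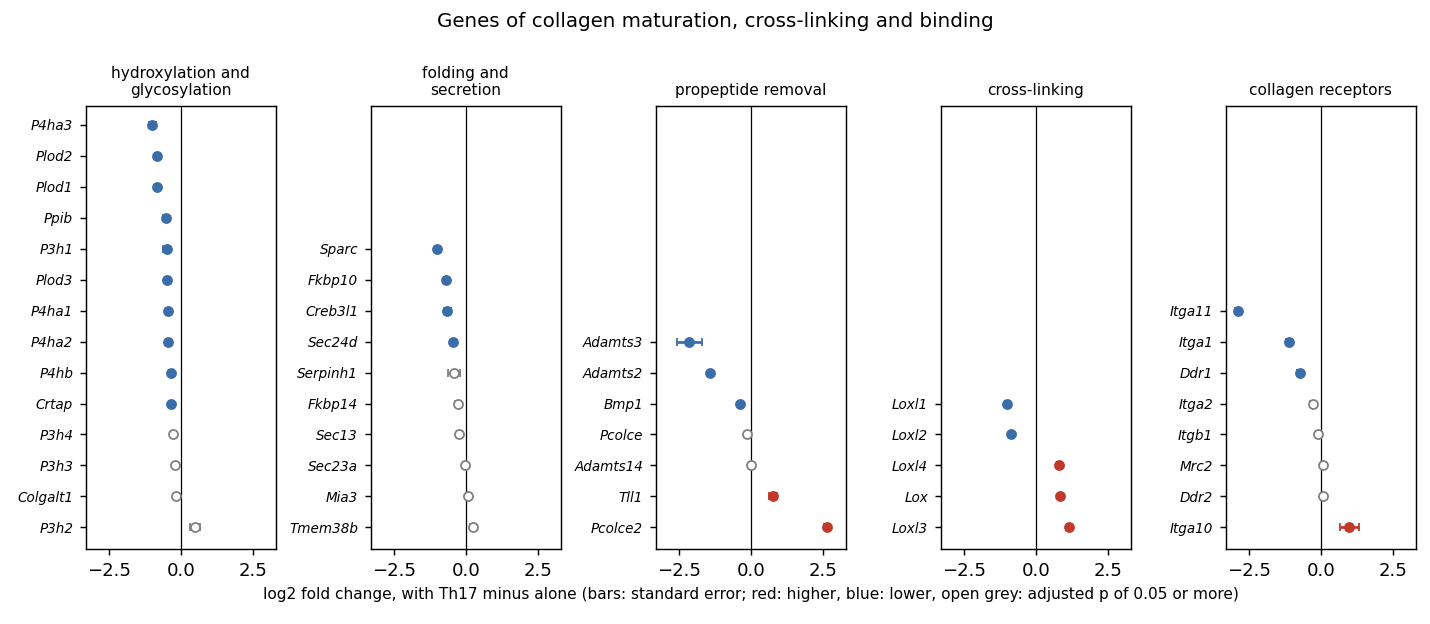
Log2 fold change (x axis, with Th17 minus alone, bars 1 standard error) of tested genes in 5 lists of collagen maturation, cross-linking and binding; blue is lower and red higher at adjusted p below 0.05, open grey neither. Hydroxylation genes that passed lie between −0.99 and −0.34, and Itga11 and Pcolce2 mark the ends of the scale at −2.88 and 2.64.

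Of 8 collagen receptor genes, 3 were lower, 1 higher and 4 neither (median −0.19), beside 20.0% lower and 17.1% higher of all genes tested. Itga11, an integrin subunit for fibrillar collagen on fibroblasts, had 133, 137 and 135 CPM alone and 17.2, 20.6 and 17.4 CPM with Th17 (log2 fold change −2.88, SE 0.087, adjusted p = 4.56e-08). Its partner Itgb1 was at −0.10, Ddr2 at 0.08 and the endocytic receptor Mrc2 at 0.07, and none of the 3 passed. Itga10 had a log2 fold change of 1.0 (adjusted p = 0.0379) on 9 to 28 counts. It lost its call in DESeq2 (adjusted p = 0.12) and when any of 5 of the 6 libraries was left out. The gene entered the test through the group with Th17, in which it was high. Of 15 tested transcription regulators linked to type I collagen genes, 3 were lower, 4 higher and 8 neither, with a median of 0.00. These regulator counts lie near the same shares of all genes. The NF-κB subunit Nfkb1 was highest (181 ± 2.89 to 362 ± 16.7 CPM, log2 fold change 1.0, adjusted p = 1.85e-06). Creb3l1, a transcription factor of the endoplasmic reticulum that also stood in the folding list, was lowest at −0.64 (adjusted p = 0.00192), and Yap1 was at 0.13 (adjusted p = 0.102). The calls of Smad2 (0.24) and Skil (0.27), picked here after their values were seen, were lost in DESeq2 (adjusted p = 0.11 and 0.0547) and when any library but fibroblasts with Th17 replicate 2 was left out, and over the alternatives the list had 2 to 5 higher genes.

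Markers of other kidney cells also differed between the groups. At adjusted p below 0.05, 20.0% of all genes tested were lower and 17.1% higher. Macrophage markers summed to 47.3 to 49.4 CPM alone and 8.22 to 10.4 CPM with Th17, and all 5 of 8 that were tested were lower. Adgre1 and Ptprc, at 0 with Th17, entered the test through the group alone, in which they were high. So did Lrp2, Rgs5 and Kdr, of the epithelial, mural and endothelial lists. Epithelial markers summed to 22.2 to 23.8 against 7.83 to 9.11 CPM (2 of 4 tested lower, Umod and Aqp2 at 0 throughout), and podocyte markers to 53.5 to 86.9 against 18.8 to 27.1 CPM (2 of 3 tested lower, Nphs1 at 0 throughout). Mural markers summed to 574 to 578 against 423 to 520 CPM, with 4 of 6 tested lower and Ren1 at 0. Endothelial markers summed to 123 to 131 against 277 to 314 CPM, with 1 of 4 tested lower, 2 higher, and Tie1 and Emcn at 0. Flt1 made up most of that sum (mean 117 and 291 CPM), while Kdr went from 5.55 to 0.126 CPM and Pecam1 stood at 1.24 and 1.32 CPM. Their part in the collagen differences was not tested.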

How the data were processed

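RNA was read from 6 libraries of primary mouse renal fibroblasts, 3 per group, made with a VAHTS kit for Illumina NovaSeq sequencing. Reads were filtered by the authors with Seqtk and, per the submitters' processing notes, aligned them to mm10 with HISAT2 2.0.4 and assembled and counted them with StringTie 1.3.3b. The deposited counts are raw fragment counts per gene, and the FPKM values deposited by the authors beside them are scaled to gene length and library total. Use of strand in counting and the handling of shared fragments are not given in the sources used here, so overlapping genes are uncertain.

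The collagen genes, classes and pathway lists were chosen with earlier results of these data known. Groups were taken from sample titles. Counts were tested with edgeR 4.0.16 (R 4.3.3) by the quasi-likelihood test with TMM factors and filterByExpr (minimum count 10), after the study's own choice of TMM, edgeR, adjusted p below 0.05 and fold change above 2. Adjustment was over all 13088 genes tested, and the common biological coefficient of variation was 11.6%. Standard errors are the log2 fold change divided by the root of its F statistic. Shares and FPKM ratios were compared by exact two-sided permutation tests (scipy 1.17.1). Every collagen gene is named; values in every library are given for those past both thresholds and for the 8 with the highest mean CPM. Of each pathway list, the highest and lowest log2 fold change among genes that passed and the 3 genes with the highest mean CPM are named. The fits were tested on simulated data. Alternatives were DESeq2 1.42.0, other scaling factors and filters, limma 3.58.1 on log2(FPKM + 1), a test against 2-fold, a replicate block and leaving out each library. Gene positions are those of the table and GENCODE M21, and upstream sequences are from RefSeq on GRCm38.p6.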

Additional observations from a re-analysis of the deposited data

How the results depend on the processing

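The count of lower collagen genes was 19 to 21 under DESeq2, other scaling factors, other filters, the replicate block, limma on log2(FPKM + 1) and without any library, against 20; with no filter, Col4a6 was added. Subsets of the genes, chosen after seeing the data, gave 19 of 25 that passed the filter in both groups and 14 of 22 that overlap no gene outside the collagen family with counts. Genes more than 2-fold lower numbered 10 to 14, the 10 when tested against 2-fold, where Col6a2, Col8a2 and Col9a3 dropped out. Genes more than 2-fold higher numbered 3, but 0 with limma on log2(FPKM + 1), which compresses low values, 1 when tested against 2-fold (Col6a6, which had entered through its high group), 2 with at least 10 counts in every library, 2 among the genes past the filter in both groups, and 2 to 4 without a library. The median log2 fold change was −0.67 with limma and −0.91 to −0.80 otherwise. The test against 2-fold took away further calls, among them those of Col4a1, Col4a2, Col5a2, Col7a1 and Col27a1. Leaving that test aside, 26 of the 28 genes tested stayed on the same side of the threshold under every alternative that gave them a value. Of these, Col11a2 (−0.23 to 0.15) and Col24a1 (−0.20 to 0.11), which passed in none, changed sign. Col9a3 lost its call without fibroblasts alone replicate 2 or 3 or fibroblasts with Th17 replicate 1 or 2, and Col20a1 passed with library size only (0.41) and with limma (0.27); the cause was not tested. Col8a2 and Col6a6 could not be tested with at least 10 counts in every library. The difference in the collagen share was −2.61 percentage points of counts, −1.08 of summed FPKM and −2.76 of TMM-scaled library size. Directions also changed in small values. The beaded filament share differed by 0.0918 percentage points of summed FPKM against −0.0716 of counts, the share of the other collagens ranged from −0.00103 to 3.54e-05 without a library, and the log2 difference of Col1a1 to Col5a1 ranged from −0.0655 to 0.0205 without a library. In the original setting the groups overlapped for each of these values, as they did for Col11a2 and Col24a1. Pathway genes, run under the same settings after seeing the data, numbered 23 to 27 lower against 24 and 7 to 13 higher against 10, of 58 tested. With the replicate number as a block, 20 collagen genes were lower, 3 higher, and 13 more than 2-fold lower, the same genes as without it. Deviations of same-numbered libraries correlated at 0.0157, −0.0256 and −0.0036. With so few libraries and their origin not stated, these values cannot decide whether the numbers pair the libraries. At this depth 16 of the 44 genes, with at most 15 counts in any library, fell below the filter.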

Other observations

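Among the regulators of type I collagen genes, some values rested on a library that stood apart, and these genes were picked after their values were seen. Sp1, whose product binds GC boxes, had 970, 1104 and 990 counts alone and 91, 1004 and 1231 counts with Th17, so that 1 coculture library lay far below the other 5. Ets1 had 825, 309 and 249 counts alone and 363, 871 and 347 counts with Th17, with a high library in each group. Ski, an antagonist of Smad signalling, had 1582, 1638 and 1440 counts alone and 2150, 948 and 1848 counts with Th17. Its log2 fold change was 0.00 (adjusted p = 0.991) with all libraries and 0.27 (edgeR adjusted p = 0.0317) without fibroblasts with Th17 replicate 2.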
